A study of Mus musculus with 8 samples.

Results

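The 6 genes Lin28a, Lin28b, Trim71, Mycn, Mycl and Hmga2 were followed through the open chromatin maps of OSKM reprogramming. A peak was counted for a gene when it overlapped, by at least 1 bp, the gene body or the 50 kb to each side of it in mm10 (GRCm38). The windows held 34 of the 56514 peaks of mouse embryonic fibroblasts (MEFs), 21 of 36219 peaks at OSKM day 5, 26 of 35226 peaks at OSKM day 10 and 36 of 48486 peaks of embryonic stem cells (ESCs). ATAC-seq, in which a transposase inserts adapters into accessible DNA, was run on 8 libraries, 2 per group, and each group is represented by 1 peak list. MEFs received no vector. The infected cells were MEFs that carried retroviral Oct4, Sox2, Klf4 and Myc (OSKM) together with a FLAG control vector, and were sampled at day 5 and day 10 in ESC medium with vitamin C. All 8 libraries were labelled wild type for the knocked-out gene of the study (Jmjd3). The labels assign MEFs, both OSKM days and ESC replicate 2 to C57BL/6J-OG2, a strain with an Oct4-GFP reporter, and ESC replicate 1 to C57Bl6J. The labels describe ESCs on feeder fibroblasts in serum medium, whereas the methods describe ESCs in 2i/L medium on gelatin, so culture, strain and cell type cannot be told apart in the ESC list. In bulk cultures, a site open in few cells cannot be told apart from a site that is weakly open in all cells.

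The genes belong to a regulatory circuit that separates early embryonic from differentiated cells. LIN28A and LIN28B are RNA-binding proteins that bind let-7 precursors and block their maturation, and both are best known from pluripotent and fetal cells. Mature let-7 microRNAs silence mRNAs through their seed, and their classical targets include Hmga2, Trim71, Mycn and Lin28b itself. TRIM71 is an RNA-binding ubiquitin ligase of the early embryo, HMGA2 is an architectural DNA-binding protein of fetal and mesenchymal cells, and MYCN and MYCL are paralogues of the MYC factor carried by the OSKM vectors. The mature let-7 sequences show what the circuit reads. The RefSeq entries of 11 of 12 let-7 family hairpins, all but Mirlet7a-2, gave 9 distinct mature 5p sequences, and all 9 carried the seed GAGGUAG. Capitals mark bases 2 to 8 in the examples.
let-7a-5p: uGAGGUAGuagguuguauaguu
let-7d-5p: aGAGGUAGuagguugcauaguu
miR-98-5p: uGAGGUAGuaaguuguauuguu

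The promoters of Lin28a, Lin28b and Trim71 are shown because the start-site patterns of these genes differed from that of Mycn, Mycl and Hmga2. For Lin28b, the RefSeq start is the downstream start at position 45470201. It is not the upstream start at position 45486395, which had no peak at OSKM day 10. Each sequence is the 250 bases before the RefSeq start in GRCm38, read on the minus strand, from chr4:134018817-134019066 for Lin28a, chr10:45470202-45470451 for Lin28b and chr9:114564370-114564619 for Trim71. Capitals mark matches to the E-box CACGTG and to the KLF consensus sequences CCACACCC, CCACGCCC, CCCCACCC and CCCCGCCC, searched on both strands.
Lin28a promoter: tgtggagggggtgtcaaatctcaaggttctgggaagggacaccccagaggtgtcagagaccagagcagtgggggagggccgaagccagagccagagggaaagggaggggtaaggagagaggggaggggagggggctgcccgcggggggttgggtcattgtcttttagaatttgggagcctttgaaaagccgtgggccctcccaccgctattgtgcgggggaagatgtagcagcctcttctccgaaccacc
Lin28b promoter: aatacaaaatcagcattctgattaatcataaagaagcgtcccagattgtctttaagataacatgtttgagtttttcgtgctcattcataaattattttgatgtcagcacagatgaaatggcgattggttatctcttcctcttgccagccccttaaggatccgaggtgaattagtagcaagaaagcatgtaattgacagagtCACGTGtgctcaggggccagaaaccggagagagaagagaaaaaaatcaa
Trim71 promoter: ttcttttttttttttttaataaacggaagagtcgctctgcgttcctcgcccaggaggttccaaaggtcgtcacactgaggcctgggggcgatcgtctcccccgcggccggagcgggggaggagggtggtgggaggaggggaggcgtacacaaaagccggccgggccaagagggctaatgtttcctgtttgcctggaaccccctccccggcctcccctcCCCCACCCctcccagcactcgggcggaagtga

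Promoter values below are for 300 bases, the 250 before the RefSeq start and the bases that directly follow it. The Lin28b promoter at the RefSeq start had a GC content of 39.0%, and 8.92% of RefSeq promoters had as little or less. The other 5 promoters ranged from 56.7% for Mycn to 64.0% for Mycl. A 200 bp stretch of the peak region over the upstream start of Lin28b had a GC content of 78.0%. It held neither an E-box nor a KLF sequence. The Lin28a promoter held 10 CpG dinucleotides in 300 bases, an observed-to-expected ratio of 0.35, against ratios of 0.54 to 0.72 for the other 5. An E-box was found in the Lin28b promoter and in 7.15% of 32851 RefSeq promoters of the same 300 bases. A KLF sequence was found in the promoters of Trim71, Mycn and Hmga2 and in 29.7% of all promoters. None of the 6 promoters held the AP-1, octamer, SOX or ESRRB sequences defined with the regions further on. These matches describe letters and are not evidence of binding.

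The start of a gene was open in most lists for 5 of the 6 genes. A peak lay over an annotated start site of 5 genes in MEFs, 4 at OSKM day 5, 4 at OSKM day 10 and 5 in ESCs, where 60.0%, 52.1%, 56.0% and 55.8% of 21938 protein-coding genes had such a peak. Mycn, Mycl and Hmga2 had a start-site peak in all 4 lists, as did 46.8% of protein-coding genes. Lin28a had none in any list, like 35.4% of protein-coding genes. With 1 list per group there is no replicate error, so the lists are compared as they stand and no test was made. The plot of distances from start sites to peaks shows these patterns for every annotated start.

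**Figure D1:**
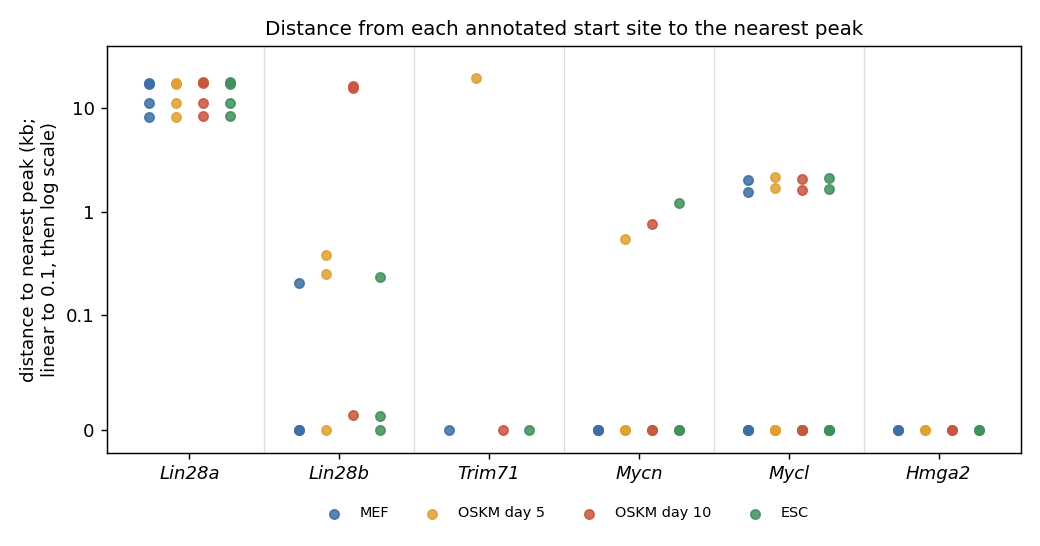
Distance in kb from each annotated start site of the 6 genes to the nearest peak in MEFs, OSKM day 5, OSKM day 10 and ESCs (linear up to 0.1 kb, then a log scale; 0 means that a peak covers the start). Each point is 1 start site in 1 list; all points of Lin28a lie at 8.13 kb or more, Trim71 leaves 0 at OSKM day 5 only, and 2 starts of Lin28b lie 15.59 kb or more from a peak at OSKM day 10.

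Lin28a (ENSMUSG00000050966.9, chr4:134003330-134018841, minus strand) had no peak of its own in any of the 4 lists, ESCs included. No interval overlapped its 15512 bp body or any of its 4 annotated start sites, and 24.8% of protein-coding genes had no peak over the gene or its start sites in any list. The nearest peak was 8.13 kb from a start in MEFs, 8.17 kb at OSKM day 5, 8.35 kb at OSKM day 10 and 8.35 kb in ESCs, and it was the start-site peak of Dhdds, which encodes a subunit of the enzyme for dolichol synthesis. Peak names carry numbers of replicate 1 that run along the chromosome. The peaks kept on both sides of Lin28a carried consecutive replicate 1 numbers at OSKM day 5, OSKM day 10 and in ESCs, with 0 numbers skipped, so these 3 lists show no numbered replicate 1 peak that was left out there. In MEFs 1 number was skipped.

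The Lin28a window nevertheless held 2 peaks in MEFs and 3 in each of the other 3 lists. The starts of Dhdds and of Hmgn2, which encodes a nucleosome-binding protein, had peaks in all 4 lists. The peak over Dhdds had a fold enrichment, the authors' ratio over background, of 5.25 in MEFs, 3.92 at OSKM day 5, 4.15 at OSKM day 10 and 4.74 in ESCs. A site 35.4 kb downstream of the 5' end of Lin28a, within Dhdds (chr4:133983172-133983804), had a peak at both OSKM days and in neither MEFs nor ESCs, with a fold enrichment of 5.20 at OSKM day 5 and 3.00 at OSKM day 10. A site 43.4 kb upstream, within Crybg2, was listed in ESCs alone, with a score of 14. The score is 10 times the -log10 q-value, and only 1.34% of ESC peaks scored as low or lower. The excess of 1 peak in ESCs over MEFs rested on that weak peak and was absent when each list was shortened to the length of the shortest, 35226 peaks. The 200 bp around the middle of the OSKM-only site (chr4:133983389-133983588, plus strand) had a GC content of 28.5% and none of the 6 motifs searched.
Lin28a OSKM-only site: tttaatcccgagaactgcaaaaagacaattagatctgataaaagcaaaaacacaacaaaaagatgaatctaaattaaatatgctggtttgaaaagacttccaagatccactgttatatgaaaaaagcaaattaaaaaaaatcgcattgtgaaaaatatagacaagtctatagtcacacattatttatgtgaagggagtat

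Lin28b (ENSMUSG00000063804.8, chr10:45376620-45486395, minus strand) had more peaks in MEFs than in each of the other 3 lists. The window of 210 kb held 6 peaks in MEFs, 2 at OSKM day 5, 1 at OSKM day 10 and 3 in ESCs. Its upstream start at position 45486395 was covered by a peak of 983 bp in MEFs, 399 bp at OSKM day 5 and 1089 bp in ESCs, and by none at OSKM day 10, where the nearest peak was 16.21 kb away. Fold enrichment at this start was 3.30 in MEFs, 3.91 at OSKM day 5 and 4.11 in ESCs. The pattern of a start-site peak in all lists but OSKM day 10 was shared by 153 other protein-coding genes, or 0.697% of all. The replicate 1 numbers around the gene body skipped 0 at OSKM day 10 and in MEFs, 2 at OSKM day 5 and 3 in ESCs.

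The downstream start of Lin28b at position 45470201, the start given by RefSeq, was covered by a peak in MEFs alone. The MEF peak spanned 1772 bp (chr10:45468735-45470506). Peaks were present at the same place in the other 3 lists, but they ended 248 bp short of the start at OSKM day 5, 13 bp short at OSKM day 10 and 12 bp short in ESCs. These peaks share 1 merged region, so the absence of a start-site call there reflects where the listed interval ended. With starts counted within 1 kb of a peak, Lin28b had a start-site peak in all 4 lists. Inside the gene, MEFs had peaks 27.5 kb and 88.0 kb downstream of the 5' end, with fold enrichments of 3.37 and 3.13, and a further peak 113.2 kb downstream of it, beyond the end of the gene. None of these 3 sites was listed at an OSKM day or in ESCs. The start of the neighbouring gene Bves, which encodes a membrane protein of muscle and epithelium, had a peak in MEFs and ESCs only. The MEF peak was weak, with a score of 14, and 3.32% of MEF peaks scored as low or lower.

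Trim71 (ENSMUSG00000079259.2, chr9:114507133-114564369, minus strand) had a start that was listed in MEFs, OSKM day 10 and ESCs and not at OSKM day 5. The peak over its only annotated start was 412 bp wide in MEFs, 815 bp at OSKM day 10 and 1693 bp in ESCs. At OSKM day 5 the nearest peak was 19.60 kb away, and 26.8% of protein-coding genes were at least as far from a peak in that list. The start-site peaks were not strong, with fold enrichments of 2.68, 2.58 and 2.70. This pattern over the 4 lists was shared by 592 other protein-coding genes, or 2.70% of all. Around the gene body 3 replicate 1 numbers were skipped at OSKM day 5, so up to 3 such peaks were left out there. The kept peaks on either side of the start, 37.0 kb into the gene and 20.2 kb upstream, were numbered 45846 and 45848. A skipped replicate 1 number therefore fell between them, at a place that the list does not give.

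The window of Trim71 held 4 peaks in MEFs, 4 at OSKM day 5, 6 at OSKM day 10 and 9 in ESCs, of which 2 intervals in ESCs came from 1 peak of replicate 1. A site 20.2 kb upstream was open in all 4 lists, with fold enrichments of 3.67 in MEFs, 4.87 at OSKM day 5, 3.70 at OSKM day 10 and 3.83 in ESCs. It was the strongest Trim71 site in each list except MEFs by score, where the intronic site 37.0 kb into the gene scored 76 against 73. Of the 12 merged regions of the window, 6 had a peak in ESCs and none in MEFs. A pair of these, 14.9 kb and 7.4 kb into the gene and wholly intronic, were also listed at OSKM day 10 and not at OSKM day 5. The start of C130032M10Rik, which lies inside Trim71, had a peak at both OSKM days and in neither MEFs nor ESCs. The OSKM day 10 peak 7.4 kb into the gene was weak, with a score of 12, and 0.559% of that list scored as low or lower. The site at 14.9 kb scored 21 at OSKM day 10 and 20 in ESCs. In these lists 14.2% and 14% of peaks scored as low or lower. Its ESC interval and that of the ESC region 16.9 kb into the gene were the 2 from 1 replicate 1 peak. A stretch of each of the 2 intronic sites is shown on the plus strand with motif matches in capitals. The first, chr9:114549321-114549520, lies inside both the OSKM day 10 and the ESC peak and held an octamer and a KLF sequence. The second, chr9:114556734-114556933, lies inside the ESC peak and outside the OSKM day 10 peak of the same merged region and held a SOX sequence.
Trim71 intronic site at 14.9 kb: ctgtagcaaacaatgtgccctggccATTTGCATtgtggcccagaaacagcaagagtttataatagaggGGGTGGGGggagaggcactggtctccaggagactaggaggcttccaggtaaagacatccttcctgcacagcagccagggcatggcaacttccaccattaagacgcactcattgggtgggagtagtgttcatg
Trim71 intronic site at 7.4 kb: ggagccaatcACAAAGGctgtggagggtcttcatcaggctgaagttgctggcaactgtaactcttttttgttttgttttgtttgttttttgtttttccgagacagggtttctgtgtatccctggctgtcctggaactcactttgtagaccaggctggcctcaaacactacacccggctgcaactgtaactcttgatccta

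Mycn (ENSMUSG00000037169.15, chr12:12936093-12941914, minus strand) kept an open start in every list, but the extent of the peak differed. In MEFs 1 peak of 4270 bp ran over the start and into the gene (chr12:12938561-12942830) and covered all 3 annotated starts. At OSKM day 5 and OSKM day 10 the start-site peak spanned 1672 bp and 1265 bp. In ESCs a start-site peak of 1977 bp extended upstream, and a separate intronic peak of 555 bp lay 3.1 kb downstream of the 5' end. Fold enrichments of the start-site peaks stayed within 2.23 to 2.80 in the 4 lists.

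Around Mycn, ESCs had 8 peaks, against 4 in MEFs, 3 at OSKM day 5 and 4 at OSKM day 10. As many or fewer window peaks were found for 89% of protein-coding genes in ESCs. The highest score of any peak in the 6 windows was that of a MEF peak 41.1 kb upstream of Mycn (chr12:12982693-12983430), with a score of 228 and a fold enrichment of 6.67. At this site ESCs had a peak of 198 bp with a score of 12, among the weakest of its list, and the OSKM lists had none. A second MEF site 31.1 kb upstream was found in no other list. ESC sites without a MEF peak lay 14.6 kb, 21.5 kb and 32.0 kb downstream and over the start of the long noncoding RNA gene Gm35208, 45.5 kb upstream. The site at 32.0 kb was also listed at OSKM day 10. A site over the start of the noncoding gene 4930519A11Rik, 37.1 kb downstream, was open in all 4 lists, although the MEF interval ended short of that start. The MEF upstream site (chr12:12982962-12983161, plus strand) held 1 AP-1 sequence, in capitals.
Mycn upstream MEF site: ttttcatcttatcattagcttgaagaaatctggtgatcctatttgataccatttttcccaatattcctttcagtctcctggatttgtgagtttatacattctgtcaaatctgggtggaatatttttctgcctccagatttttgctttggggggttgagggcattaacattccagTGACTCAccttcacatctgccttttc

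Mycl (ENSMUSG00000028654.13, chr4:122995652-123002485, plus strand) had a start-site peak of similar width in all 4 lists. The peak spanned 1908 bp in MEFs, 1703 bp at OSKM day 5, 1809 bp at OSKM day 10 and 1785 bp in ESCs. The fold enrichment was 3.67, 3.12, 3.20 and 3.10 in the same order, and 3 of the 5 annotated starts were covered in every list. The 2 starts that lay 1.54 kb or more from a peak are internal to the gene. Of the 8 merged regions, 4 were present in all 4 lists and 5 in both MEFs and ESCs. The 4 were the Mycl start, the starts of Mfsd2a, which encodes a lysolipid transporter, and Trit1, which encodes a tRNA-modifying enzyme, and a site within Mfsd2a 40.2 kb upstream. Window counts were 5, 4, 5 and 8. The excess in ESCs came from sites 12.4 kb upstream and 17.2 kb and 55.4 kb downstream, with ESC scores of 15, 15 and 23. In lists of equal length Mycl had 4 peaks in MEFs and 4 in ESCs.

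Hmga2 (ENSMUSG00000056758.14, chr10:120361275-120476469, minus strand) had more MEF peaks than any other of the 6 genes, in the full lists and under each alternative tried. The window of 215 kb held 13 peaks in MEFs, 5 at OSKM day 5, 7 at OSKM day 10 and 5 in ESCs, and 97.5% of protein-coding genes had as many or fewer in MEFs. Per 100 kb of window the MEF density was 6.04, and 83.5% of protein-coding genes were as dense or less dense. The start-site peak was listed throughout, with a width of 2569 bp in MEFs, 2429 bp at OSKM day 5, 1846 bp at OSKM day 10 and 1640 bp in ESCs. Inside the gene, including its start, MEFs had 10 peaks and ESCs 3.

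The MEF sites of Hmga2 separated into those also seen at the OSKM days and those seen in MEFs alone. Of 18 merged regions, 12 had a peak in MEFs and none in ESCs, and 9 of these 12 were in the MEF list only. The other 3 lay in introns 54.3 kb, 75.1 kb and 98.8 kb downstream of the 5' end and were listed at both OSKM days. The site at 54.3 kb had a fold enrichment of 3.45 in MEFs, 2.76 at OSKM day 5 and 3.31 at OSKM day 10. The 9 MEF-only sites had scores from 14 to 45, and the 3 shared sites had MEF scores of 166, 54 and 36 in the order given. With peaks of a -log10 q-value below 2 left out, Hmga2 had 8 peaks in MEFs and 4 in ESCs. In lists of equal length Hmga2 had 5 peaks in MEFs and 4 in ESCs.

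A site 46.1 kb upstream of Hmga2 showed the opposite order. It was listed at OSKM day 5, OSKM day 10 and in ESCs and not in MEFs, with fold enrichments of 3.35, 3.11 and 4.42, and its ESC score of 121 was as high as or higher than that of 93.7% of ESC peaks. Another site, 47.4 kb into the gene, had a peak at OSKM day 10 and in ESCs, with fold enrichments of 2.92 and 3.98. The upstream site (chr10:120522395-120522594) held none of the motifs searched, whereas a stretch of the MEF peak at the intronic site of 75.1 kb (chr10:120401066-120401265), which lies outside the OSKM intervals of that site, held 1 AP-1 sequence. Both are given on the plus strand.
Hmga2 upstream site: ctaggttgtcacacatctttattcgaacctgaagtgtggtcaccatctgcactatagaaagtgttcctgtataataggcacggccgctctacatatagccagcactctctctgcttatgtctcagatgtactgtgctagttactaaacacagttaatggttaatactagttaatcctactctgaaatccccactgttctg
Hmga2 intronic MEF peak at 75.1 kb: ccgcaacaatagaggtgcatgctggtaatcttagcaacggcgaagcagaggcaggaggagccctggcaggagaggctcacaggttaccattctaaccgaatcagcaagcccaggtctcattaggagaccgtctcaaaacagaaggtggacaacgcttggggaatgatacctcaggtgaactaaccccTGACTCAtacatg

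**Figure D2:**
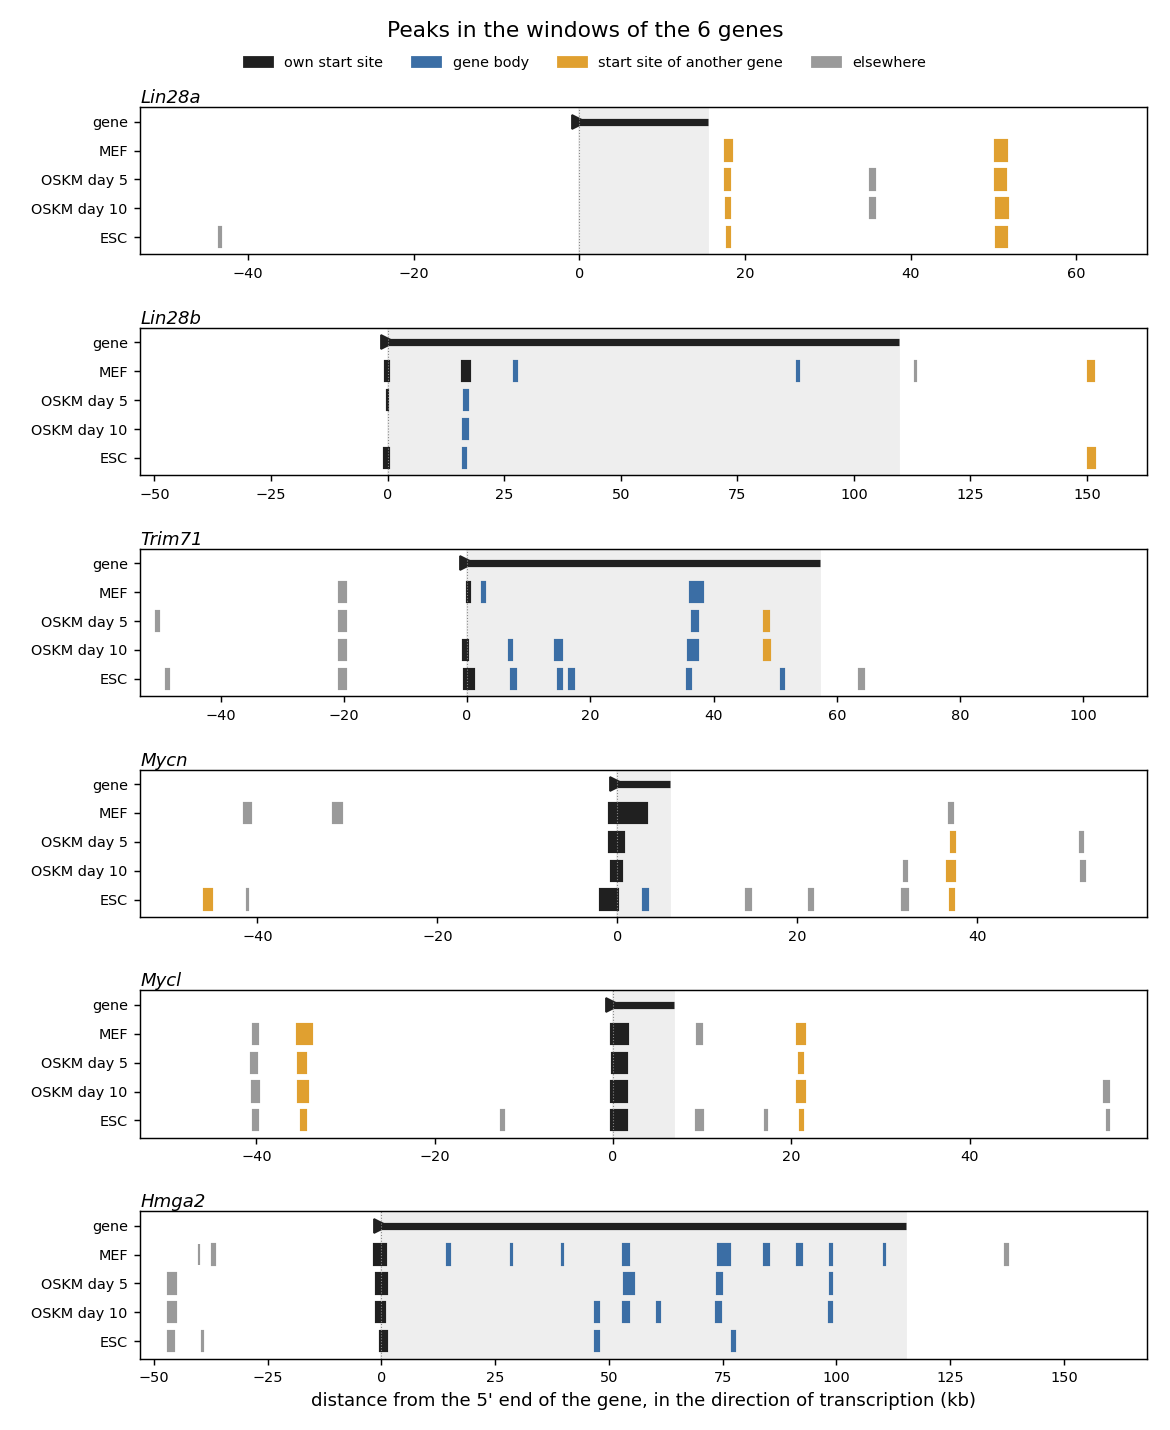
Peaks of the 6 genes in MEFs, OSKM day 5, OSKM day 10 and ESCs, drawn by distance in kb from the 5' end of the gene in the direction of transcription, with the gene body shaded and colours for the place of each peak. Peak widths are to scale with a thin outline; the body of Lin28a is empty in all 4 rows, and that of Hmga2 holds 10 peaks in MEFs with its start-site peak counted.

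Across the 6 genes, the number of peaks was lowest at OSKM day 5 and close between MEFs and ESCs. Pooled over the 6 windows, peaks per 100 kb were 3.73 in MEFs, 2.31 at OSKM day 5, 2.86 at OSKM day 10 and 3.95 in ESCs. Over protein-coding genes, the medians of single-gene densities were 3.46, 2.10, 2.34 and 3.12. A pooled density and a median of single genes are different measures. Lin28a, Trim71, Mycn and Mycl had more window peaks in ESCs than in MEFs, 4 of 6 genes, as did 35.6% of protein-coding genes. Lin28b and Hmga2 had fewer, as did 42.2% of protein-coding genes. At OSKM day 10, Trim71, Mycn, Mycl and Hmga2 had more window peaks than at OSKM day 5, as did 33.0% of protein-coding genes. Lin28b, Mycn, Mycl and Hmga2 had fewer at OSKM day 5 than in MEFs, as did 63.2%.

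The MEF and ESC lists were longer than the OSKM lists, and the depth of the libraries is not known. When each list was shortened to its 35226 highest-scoring peaks, Trim71 and Mycn still had more peaks in ESCs than in MEFs, with 5 against 2 and 5 against 3, and 38.2% of protein-coding genes did so. Lin28b and Hmga2 still had fewer, with 2 against 3 and 4 against 5, as did 34.6% of protein-coding genes. Lin28a and Mycl had equal counts. The windows then held 19 peaks in MEFs, 21 at OSKM day 5, 26 at OSKM day 10 and 22 in ESCs, so the order of the lists in total peaks depended on list length. The plot of window counts gives the full lists.

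**Figure D3:**
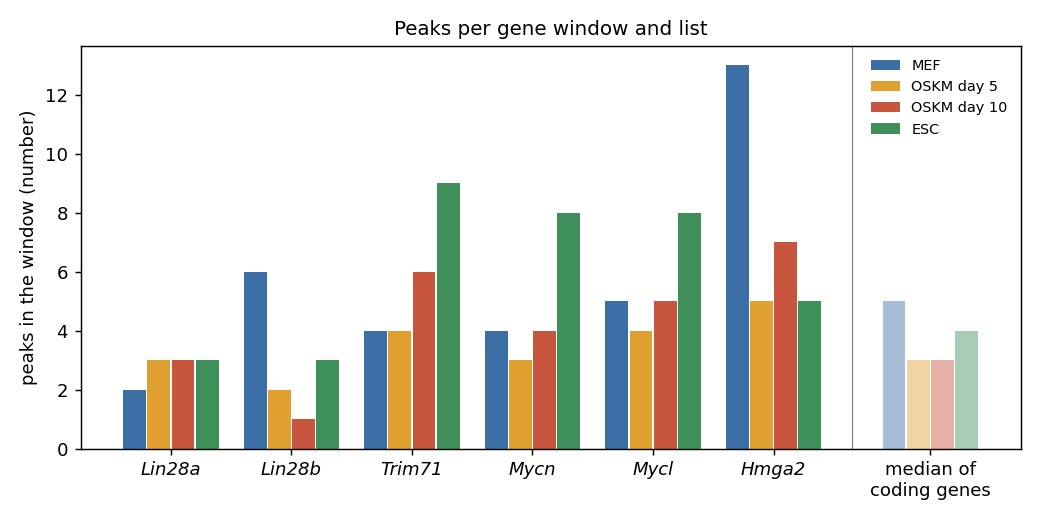
Number of peaks in the window of each of the 6 genes in MEFs, OSKM day 5, OSKM day 10 and ESCs, with the median over 21938 protein-coding genes in pale bars (5, 3, 3 and 4). Hmga2 has 13 peaks in MEFs and 5 in ESCs, and Trim71 has 4 in MEFs and 9 in ESCs.

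In each list, most peaks of these loci had a fold enrichment below the list median. The counts were 24 of 34 in MEFs and 13 of 21 at OSKM day 5. They were 16 of 26 at OSKM day 10 and 26 of 36 in ESCs. The median fold enrichment of the window peaks was 3.00 in MEFs, 3.42 at OSKM day 5, 3.17 at OSKM day 10 and 3.08 in ESCs, against 3.32, 3.72, 3.36 and 3.48 over whole lists. The top 10% of the list by score held 3 of the 34 MEF peaks, 1 of 21 at OSKM day 5, 0 of 26 at OSKM day 10 and 2 of 36 in ESCs. The 3 MEF peaks were the Mycn upstream site, the Hmga2 intronic site at 54.3 kb and the Dhdds start. The peak at OSKM day 5 was the Trim71 upstream site, which was also 1 of the 2 in ESCs beside the Hmga2 upstream site. None of the 6 was a start-site peak of a listed gene.

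**Figure D4:**
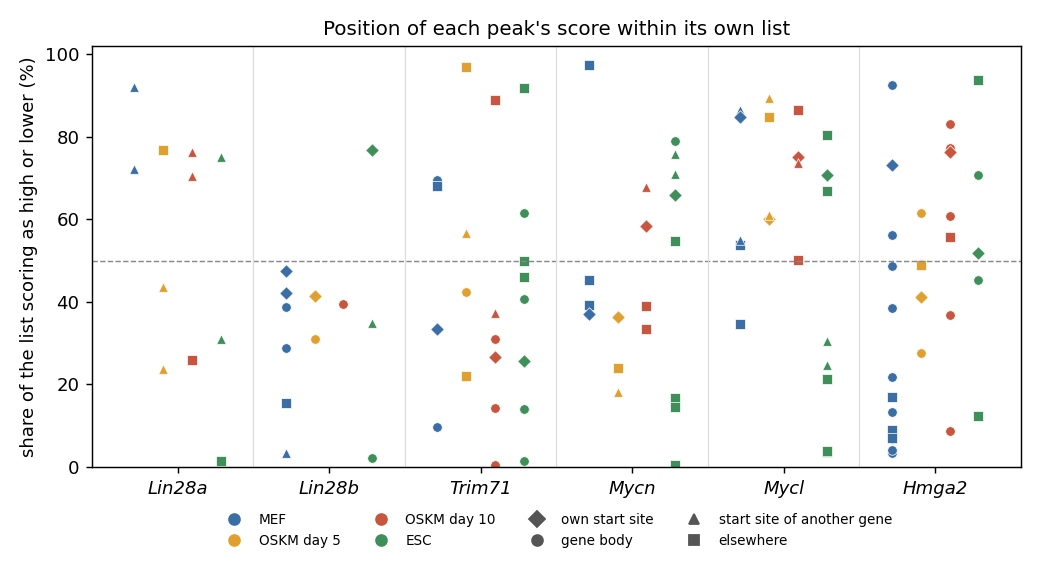
Share of the peaks of the same list that score as high or lower, in %, for every peak in the windows of the 6 genes, coloured by list and shaped by place; the dashed line marks 50%. The Mycn upstream peak in MEFs stands at 97.4% and the Trim71 upstream peak at OSKM day 5 at 97%, while start-site peaks (diamonds) stand at 84.8% or below.

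Peaks of the 4 lists that lay within 400 bp of each other were merged into 57 regions in the windows and 101701 in the genome. A region was called MEF-specific with a peak in MEFs and none in ESCs, ESC-specific in the opposite case, common with both, and transient with a peak at an OSKM day alone. The 6 genes had 18 MEF-specific, 18 ESC-specific, 17 common and 4 transient regions, or 31.6%, 31.6%, 29.8% and 7.02%, against 36.4%, 28.4%, 19.1% and 16.1% of all regions. Hmga2 supplied 12 of the 18 MEF-specific regions, and Trim71 and Mycn supplied 10 of the 18 ESC-specific ones. All 6 regions over a start of a listed gene were common, and 5 of the 8 regions over the start of another gene were present in all 4 lists. Of the 20 regions elsewhere in the gene bodies, 12 were MEF-specific, most of them in Hmga2, 6 ESC-specific, 1 common and 1 transient. Over all regions of any place, 19.1% were common and 13.8% were in all 4 lists. Genome shares for regions of the same place were not computed, so these counts by place are not shown to be particular to the 6 genes.

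**Figure D5:**
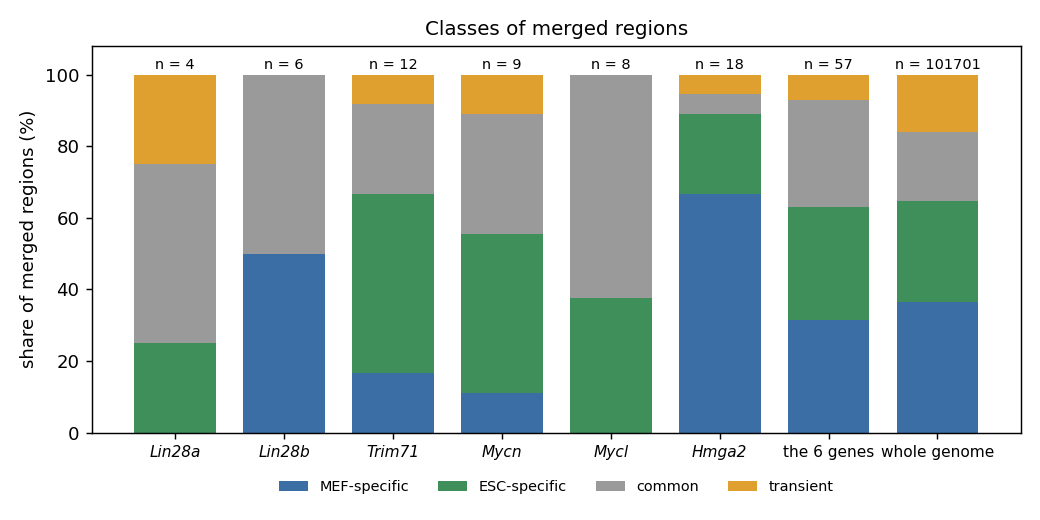
Share of merged regions in %, by class, for each of the 6 genes, for the 6 together and for the whole genome, with the number of regions above each bar. MEF-specific regions make up 12 of the 18 regions of Hmga2 and 0 of the 8 regions of Mycl, and the 57 regions of the 6 genes hold 4 transient ones.

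The OSKM lists held a part of the ESC-specific regions of these genes. OSKM day 10 had a peak in 6 of the 18, and OSKM day 5 in 1, where 12.6% and 10.7% of all ESC-specific regions had one. The 5 regions listed at OSKM day 10 and not at OSKM day 5 were the 2 intronic sites of Trim71, the site 32.0 kb downstream of Mycn, the site 55.4 kb downstream of Mycl and the intronic site of Hmga2 at 47.4 kb. Over the genome 4.41% of ESC-specific regions had that pattern. The OSKM day 10 peak of the Trim71 site at 7.4 kb had a -log10 q-value of 1.28, below the stricter threshold of 2. Of the 18 MEF-specific regions 14 had no peak at either OSKM day, as had 81.1% of all MEF-specific regions. These shares rest on few regions in 6 windows, and neighbouring regions of 1 gene are not independent.

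Each region was represented by 200 bp centred on its widest peak, and both strands were searched for short motif sequences. These were TGACTCA and TGAGTCA (AP-1), the OCT4 octamer ATGCAAAT, CCATTGT and CCTTTGT for SOX factors, TCAAGGTCA for ESRRB, and the KLF and E-box sequences given above, and none of them contains another. An AP-1 sequence was found in 4 of the 18 MEF-specific regions and in 23% of all MEF-specific regions. Of the 4, 1 lay in Lin28b, 2 in Hmga2 and 1 within Cnot10, 50.3 kb upstream of Trim71. The region within Cnot10 reached the Trim71 window only by its OSKM day 5 peak, and the 200 bp searched in it lay outside that window. Of the 18 ESC-specific regions, 5 held a KLF sequence, 3 a SOX sequence and 1 an octamer, where 10.2%, 14.5% and 3.18% of all ESC-specific regions did. The KLF matches lay near Lin28a, Trim71, Mycn and Mycl, with 2 of the 5 regions downstream of Mycn. No ESRRB sequence was found in the 57 regions, and 0.68% of all regions held one. An E-box was found in 2 of the 57 regions and in 2.93% of all regions.

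Summed over their loci, the let-7 genes themselves had more window peaks in the MEF list than in the others. The 12 hairpins of the family occupied 8 separate loci once overlapping windows were joined, and these held 46 peaks in MEFs, 18 at OSKM day 5, 24 at OSKM day 10 and 26 in ESCs. ESCs had fewer peaks than MEFs at 7 of the 8 loci and the same number at the locus of Mirlet7f-2 and Mir98, where 42.2% of protein-coding genes had fewer. The MEF list is the longer, with 56514 peaks against 48486, and with lists of equal length ESCs had fewer at 5 loci and more at 1. In lists of equal length 34.6% of protein-coding genes had fewer and 38.2% had more. At the locus of Mirlet7a-1, Mirlet7d and Mirlet7f-1 the counts were 11, 2, 4 and 6, and at Mirlet7a-2 they were 9, 2, 1 and 1. OSKM day 10 had more peaks than MEFs at Mirlet7c-1, with 3 against 2, and at Mirlet7g, with 8 against 7. It had fewer at the other loci. A peak covered the annotated 5' end of the hairpin for Mirlet7i in all 4 lists and for none of the other 11, the pattern of Lin28a. The annotated hairpin end is not the start of the primary transcript.

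Most genes of the let-7 processing pathway had a start-site peak in all 4 lists, as had 46.8% of protein-coding genes. Of 9 such genes, Drosha, Dgcr8, Xpo5, Dicer1, Tarbp2, Tut4, Tut7 and Dis3l2 had a start-site peak in all 4 lists, the pattern of Mycn, Mycl and Hmga2, and Ago2, which encodes the slicing Argonaute, had it in all but ESCs. Among them, 3 had more and 6 had fewer window peaks in ESCs than in MEFs, beside 35.6% and 42.2% of protein-coding genes. Summed over the 9 genes, the window counts were 59 in MEFs and 59 in ESCs. Of 14 other let-7 targets, 13 had a start-site peak in MEFs, 11 at OSKM day 5, 14 at OSKM day 10 and 10 in ESCs, where the shares of protein-coding genes were 60.0%, 52.1%, 56.0% and 55.8%. A start-site peak in all lists was found for 9 of them, namely Igf2bp2, Hmga1, Nras, Cdc25a, Arid3a, Plagl2, E2f2, E2f5 and Cdk6. Igf2bp1, which encodes an mRNA-binding protein of fetal tissue, had the pattern of Trim71, with no start-site peak at OSKM day 5 only. Its window counts were 7, 2, 6 and 5. The 9 genes of the MYC network, Max, Mxd1, Mxd3, Mxd4, Mxi1, Mnt, Mlx, Mlxip and Mga, which encode MAX and MLX, their MXD, MNT and MLXIP partners and MGA, all had a start-site peak in every list, again beside 46.8% of protein-coding genes.

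Several genes had counts like those of the 6 listed genes. Likeness was the sum of absolute differences in window counts over the 4 lists among protein-coding genes with the same start-site pattern, with ties settled by summed peak length. The sum was 0 for Ucn3 and Gm8251 with Lin28a, for Scn9a with Lin28b, for Zfp619 and Nradd with Mycn and for Rsbn1l and Ticrr with Mycl. It was 1 for Hspa12a and Zeb2 with Hmga2, and 2 for Msantd3 and Arglu1 with Trim71 and for D430019H16Rik with Lin28b. Counts this small are shared by many loci over 4 lists, and no further property was compared.

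The lists matched their labels at marker genes in window counts, and less fully at start sites. The windows of 8 fibroblast markers, Thy1, Col1a1, Col1a2, Prrx1, Twist2, Zeb2, Pdgfrb and Fbn1, held 80 peaks in MEFs, 40 at OSKM day 5, 41 at OSKM day 10 and 26 in ESCs, with fewer in ESCs than in MEFs for 8 of 8. The windows of 8 ESC markers, Nanog, Esrrb, Dppa4, Tfcp2l1, Zfp42, Sall4, Dppa5a and Tdgf1, held 20, 17, 23 and 67 peaks, with more in ESCs for 8 of 8. Over protein-coding genes, 42.2% had fewer and 35.6% had more window peaks in ESCs than in MEFs. Start-site peaks were found for 8 fibroblast and 3 ESC markers in MEFs, and for 3 fibroblast and 6 ESC markers in ESCs. The ESC marker Tdgf1 had a start-site peak in MEFs and at OSKM day 10 and none in ESCs. Dppa5a had none in any list, and Esrrb and Tfcp2l1 had a start-site peak in MEFs as well as in ESCs. Fibroblast marker peaks in the ESC list stood beside the 5 ESC peaks of Hmga2 and the 3 of Lin28b, and any part of feeder or remaining fibroblasts in those peaks was not tested.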

How the data were processed

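ATAC-seq was run on 8 libraries of 4 groups (MEF, OSKMD5, OSKMD10 and ESC, from the sample titles), and the authors deposited 1 peak list per group. Reads were mapped by the authors to mm10 with bowtie2 (Bowtie2 2.2.0 in the submitters' processing notes) in its very sensitive mode, samtools was used to filter on mapping quality, and multiply mapped and mitochondrial reads were discarded, per the labels and the methods. The 2 sources differ in the mapping quality threshold. The peak caller and the step that joined the replicates are not given in the sources used here, nor is a transposase offset of the read ends.

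The deposited lists have no header and the broad-peak layout, and give each peak a score, its fold enrichment as a ratio to background and a -log10 q-value (a -log10 p-value was not used). The authors' score equals 10 times the -log10 q-value with decimals dropped, apart from 2 peaks in the MEF list, 1 at OSKM day 5 and 1 in ESCs. Peak names are those of replicate 1, so a list looks like the parts of replicate 1 peaks that replicate 2 also covered, in which case the score and enrichment describe the uncut replicate 1 peak. Replicates cannot be compared, and depth is unknown, so no interval is given. No column belonged to other series (0 columns).

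Peaks were joined with GENCODE mouse release 21 genes (Python 3.11.15, numpy 2.4.6, pysam 0.24.0). Every peak ended within its GRCm38 chromosome. Counting was tested on simulated peaks. A gene's start sites were those of all its annotated transcripts, and its 5' end the outermost 1. Sequences came from RefSeq and the GRCm38.p6 genome. Shares over all 21938 protein-coding genes or all regions stand beside the main counts and are not tests. Alternatives were other windows, thresholds, list lengths, overlaps, start sites and merging distances. Named were the 6 genes, genes of the lists whose start-site pattern equalled that of 1 of the 6, the 2 closest genes by likeness and neighbours with a start under a peak, besides the genes of the marker lists. Ago2 falls outside this rule and was named after its values were seen. Counts of 5 or fewer regions were named after their values were seen. The genes and lists were chosen with earlier results of these data known. A further gene of the let-7 target list is not reported here.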

Additional observations from a re-analysis of the deposited data

How the results depend on the processing

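Of 87 values of the main counts under an alternative, 72 stayed within 1.5 times the reported value, and the sign of the ESC minus MEF difference reversed for none of the 6 genes. With windows of 20 kb to each side, ESC peaks numbered 23, ESC-specific regions 11 and common regions 11. With 100 kb, peaks at OSKM day 5 numbered 32, peaks at OSKM day 10 numbered 40 and transient regions 10. With 50 kb around the 5' end, 9 MEF-specific and 2 transient regions remained in the count. With lists as long as the shortest, MEF peaks numbered 19 and ESC peaks 22, 3 genes had a start-site peak in MEFs, 2 genes had more peaks in ESCs than in MEFs, and there were 10 MEF-specific, 10 common and 7 transient regions. The alternatives counted more or less sequence or fewer peaks, and the cause of each move was not tested. Lin28a had equal counts in MEFs and ESCs with 20 kb, with 100 kb, with a -log10 q-value of at least 2 and with equal list lengths, and Mycl with equal list lengths. Counting intervals of 1 replicate 1 peak once, an alternative chosen after seeing the data, left Trim71 with 8 ESC peaks. The equal list lengths at the let-7 loci were also added after seeing the data. No paired analysis was possible because each group has 1 list in which both replicates are joined, and leaving out a replicate was not possible for the same reason. The lists give no read depth, so a site missing from a list is below that list's threshold and not shown to be closed.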
